A study of Mus musculus with 12 samples.

Results

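Adipocyte genes were examined in 12 tumors grown from CT-26 cells, a mouse colon carcinoma line, in mice that swam and in mice that did not. The members were 10 of the 30630 genes listed for every tumor, namely Adipoq, Fabp4, Plin1, Plin4, Cfd, Lpl, Cd36, Cidec, Car3 and Pparg, each found by its Ensembl identifier through the GENCODE M21 annotation. All 10 were found, and 9 of the 10 passed the filter on low values used for the test across genes. CT-26 cells had been injected in Matrigel under the skin of the right flank of male BALB/c mice, bought at 4 to 6 weeks of age. The control group (n = 6 tumors) did not swim. The swimming group (n = 6 tumors) was made to swim for 3 weeks, in 2 daily sessions of up to 30 min on 6 days of each week. Each group held 10 mice, of which 6 gave a sequenced tumor, and both groups carried the same transplanted line. Whole tumor tissue was sequenced, so RNA of tumor cells and of host cells was measured together.

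White adipocytes store triglyceride in a lipid droplet that is coated by perilipins and enlarged by CIDE proteins. They take up fatty acids that lipoprotein lipase frees from lipoproteins, and they release hormones such as adiponectin and the protease adipsin. PPARγ, encoded by Pparg, is the transcription factor that drives this program together with C/EBP proteins. Adipose tissue lies beneath the skin, in the layer into which CT-26 cells are injected. Adiponectin, perilipin 1 and Cidec are close to specific for adipocytes, whereas Fabp4, Cd36, Lpl and Pparg are also used by endothelial cells or macrophages, and Car3 also by skeletal muscle.

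Values are FPKM, the number of read fragments scaled by gene length and by the mapped fragments of the tumor, so levels of different genes can be set side by side per length. The sum of FPKM was between 380139 and 407109 per tumor and 22293 to 23974 genes were above 0. The absolute depth is unknown, and the relative depth was lowest in control 2 (0.694 of that of control 1). Correlations between tumors over all genes tested were between 0.975 and 0.991. Control 1 and swimming 5 stood apart in the adipocyte genes, so results are given with and without them. The line label was checked against epithelial markers. Krt18 was between 5.89 and 14.8 FPKM, Krt8 between 1.86 and 129 FPKM in the 12 tumors, and the intestinal gene Lgals4 between 1.58 and 2.83 FPKM. The epithelial or intestinal genes Krt19 (up to 0.757 FPKM), Cdh1 (up to 0.430 FPKM) and Epcam, Cdx2, Vil1 and Cldn7 (up to 0.341 FPKM) were below 1 FPKM in every tumor.

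Adiponectin (Adipoq, ENSMUSG00000022878, GRCm38 chromosome 16, 23146536 to 23158028), the adipocyte hormone, was high in 1 control tumor and low in most others. Its level was 12.6 FPKM in control 1 and 0.176, 0, 0.232, 0.740 and 0.107 FPKM in controls 2 to 6. In swimming tumors 1 to 6 it was 0.125, 0.168, 0.805, 0.397, 3.69 and 0.971 FPKM. Control 1 was the highest tumor and swimming 5 the next, and 3 of the 6 swimming tumors lay above every control tumor other than control 1. Control 1 held 91.0% of the control group's summed Adipoq, and 54.4 times the median of the other 11 tumors. Adipoq is listed at 0 in control 3. Of the 8105 genes with a median of at least 5 FPKM, 2 are listed at 0 in that tumor as well. Those genes lie far above Adipoq, whose median outside control 1 was 0.232 FPKM, so they give no rate of zeros at its level.

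Adipsin (Cfd, ENSMUSG00000061780, chromosome 10, 79890853 to 79892655), the serine protease that adipocytes secrete and that acts in the alternative complement pathway, had the highest level of all members in control 1, while Fabp4 was above Cfd in the other 11 tumors. Cfd was 102.6 FPKM in control 1 and 0.965, 0.256, 0.921, 4.29 and 0.595 FPKM in controls 2 to 6. Across the swimming tumors the lowest Cfd level was 0.313, the median 3.23 and the highest, in swimming 5, 16.8 FPKM. The groups overlapped, and 5 of 6 swimming tumors were above the control median of 0.943 FPKM. Control 1 exceeded the median of the other tumors 61.0 times, the largest such ratio among the 10 members.

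The lipid droplet proteins differed among themselves. Cidec (ENSMUSG00000030278, chromosome 6, 113424634 to 113435760), which enlarges lipid droplets, was 13.1 FPKM in control 1 and 0.218, 0.0318, 0.0777, 0.866 and 0.160 FPKM in controls 2 to 6. It was 0.0622, 0.250, 0.842, 0.478, 2.45 and 0.983 FPKM in swimming tumors 1 to 6. Cidec was thus near the level of Adipoq in most tumors, with a ratio of Cidec to Adipoq of 1.04 in control 1 and a median of 1.05 over the 11 tumors in which Adipoq was above 0. Perilipin 1 (Plin1, ENSMUSG00000030546, chromosome 7, 79720218 to 79732903), the droplet coat protein that controls lipolysis, was 3.33 FPKM in control 1, 0.747 in swimming 5 and 0.208 in swimming 6. In the other 9 tumors Plin1 was between 0.0124 and 0.126 FPKM, so that only 4 tumors reached 0.1 FPKM and the gene did not pass the filter. Perilipin 4 (Plin4, ENSMUSG00000002831, chromosome 17, 56100591 to 56109803), a coat protein of small droplets, varied far less, with 3.97 FPKM in control 1 and 0.889 to 2.35 FPKM elsewhere. Control 1 was 2.90 times the median of the other tumors for Plin4, against 44.0 for Plin1 and 52.5 for Cidec. Exons of Plin4 overlap exons of Hdgfl2 on the other strand by 17 bases, and no exon of another member overlaps another gene.

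The genes of fatty acid supply were present in every tumor. Lipoprotein lipase (Lpl, ENSMUSG00000015568, chromosome 8, 68880491 to 68907448) was 6.63 FPKM in control 1 and 0.282 to 0.573 FPKM in the other controls, with a median of 0.485. In the swimming group Lpl ranged from 0.262 over a median of 1.03 to 2.76 FPKM, and 4 of 6 swimming tumors were above every control except control 1. Cd36 (ENSMUSG00000002944, chromosome 5, 17781690 to 17888801), a fatty acid transporter and scavenger receptor, was 14.6 FPKM in control 1 and 3.34 to 8.39 FPKM in the other 11 tumors. The lowest Cd36 level was in swimming 2 and the next to highest in swimming 5. Fabp4 (ENSMUSG00000062515, chromosome 3, 10204088 to 10208576), the fatty acid binding protein of adipocytes, endothelium and macrophages, was 44.7 FPKM in control 1, 20.3 in swimming 5 and 6.62 to 11.7 FPKM in the other 10 tumors. Outside control 1, Fabp4 and Cd36 were the most abundant members, with medians of 9.95 and 4.76 FPKM over 11 tumors.

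Pparg (ENSMUSG00000000440, chromosome 6, 115360951 to 115490399), the adipogenic transcription factor, was 1.83 FPKM in control 1, 1.19 in swimming 5 and 0.295 to 0.681 FPKM in the other 10 tumors. Carbonic anhydrase 3 (Car3, ENSMUSG00000027559, chromosome 3, 14863512 to 14872523), abundant in adipocytes and slow muscle fibers, was 50.3 FPKM in control 1 and 24.4 in swimming 5. The other 10 tumors ranged from 0.273 in control 3 to 7.24 FPKM in control 6. Car3 did not keep to the order of Adipoq below the highest tumors. After control 1, Car3 was highest in swimming 5, control 6 and swimming 3, which in the same order had the highest summed FPKM of 15 skeletal muscle genes (424, 316 and 308), while control 1 had 116. The part of muscle RNA in the Car3 values was not tested.

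**Figure D1:**
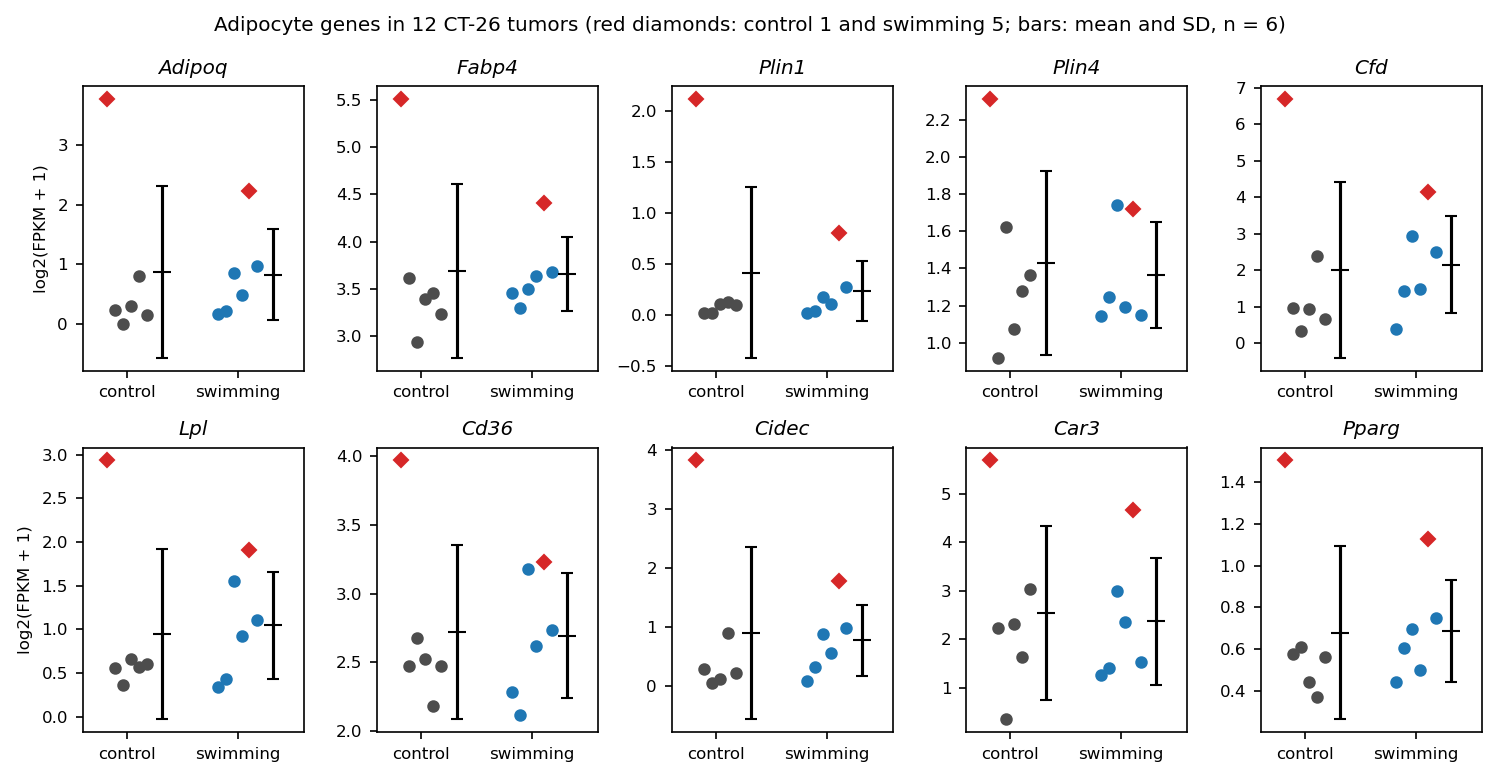
Level of each of the 10 genes in log2(FPKM + 1) on the vertical axis for the 6 control and the 6 swimming tumors, 1 point per tumor, with red diamonds for control 1 and swimming 5 and bars for the group mean and SD. Control 1 is the highest point in all 10 panels, 102.6 FPKM for Cfd and 12.6 FPKM for Adipoq, and the groups overlap in every panel.

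Control 1 was the highest of the 12 tumors for 10 of 10 members, and swimming 5 was second for 9 and came after swimming 3 for Plin4. Over all 19018 genes tested, control 1 was highest for 9.44% and swimming 5 for 16.2%. Control 1 was highest with swimming 5 second for 3.07%. The size of the excess differed by gene. Control 1 exceeded the median of the other 11 tumors 44.0 to 61.0 times for Plin1, Cidec, Adipoq and Cfd, 13.7 times for Car3 and 12.8 times for Lpl, and between 2.90 and 4.50 times for Plin4, Cd36, Pparg and Fabp4. Accordingly the order of levels changed. In control 1 it was Cfd, Car3, Fabp4, Cd36, Cidec, Adipoq, Lpl, Plin4, Plin1 and Pparg, from 102.6 to 1.83 FPKM. By the median over the other 11 tumors, Plin1 (0.0758 FPKM) and Adipoq (0.232 FPKM) were the lowest members, though not in each of these tumors. Each tumor is 1 library, so neighbours in these orders have no error of their own. In swimming 5 the excess over the median of the other swimming tumors was 12.8 times for Car3, 9.79 for Plin1, 9.29 for Adipoq, 9.25 for Cfd, 5.12 for Cidec and 3.07 for Lpl, and 1.63 to 2.28 times for the remaining members. Among the remaining tumors, swimming 3 and swimming 6 were within the 4 highest for 8 members each, and swimming 1 was within the 4 lowest for 9 and control 3 for 7. In bulk tissue, fewer cells of a type and less RNA per cell cannot be told apart.

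No difference of an adipocyte gene between the swimming and the control group passed a test. The comparison addresses whether swimming changed the tumors' transcripts. It was made with limma on log2(FPKM + 1), with Benjamini-Hochberg adjustment over all genes tested. Among the 9 members tested, 0 had an adjusted p below 0.05, as for 0.0% of all genes, and 0 had an unadjusted p below 0.05, against 5.56% of all genes (3.11% higher and 2.46% lower in the swimming group). None passed the study's cut-off, read here as a fold change above 2 with an unadjusted p below 0.05 (0.105% of all genes), and 0 of 10 members had groups that did not overlap (0.147% of all genes). The study applied its cut-off to transcripts, while genes were tested here. The pseudocount of 1 shrinks fold changes at low FPKM, so members below 1 FPKM in most tumors could hardly reach that fold change. The intervals were wide. The log2 fold change of Adipoq, swimming minus control, was -0.05 (SE 0.587, 95% confidence interval -1.32 to 1.22, limma adjusted p = 0.993), from group means of 0.87 ± 1.44 and 0.82 ± 0.76 (SD, n = 6 each) on the log2 scale. That of Cfd was 0.15 (SE 0.986, interval -1.98 to 2.28, limma adjusted p = 0.991). Estimates of the other 7 members lay between -0.17 (Car3) and 0.10 (Lpl), and the narrowest interval was that of Pparg, -0.37 to 0.39. Of the 9 estimates 3 were above 0, while 51.7% of all genes had an estimate above 0. Exact two-sided permutation tests over the 924 divisions of the tumors gave p = 0.805 (Plin4) to 0.961 (Fabp4) for the 10 members, Plin1 included (p = 0.887). The smallest p this test can give is 0.00216. The estimates of weakly expressed members depended on the pseudocount. With 0.1 or 0.01 in place of 1 the direction turned for Adipoq (0.41 and 0.98) and Cidec (0.30 and 0.59), the estimate was larger for Cfd (0.44 and 0.50) and Lpl (0.29 and 0.33) and nearer 0 for Car3 (-0.048 and -0.0047), and no member passed a threshold.

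Leaving out control 1 turned the direction of 6 of these estimates and placed all 9 above 0, but none passed a threshold. Without it the log2 fold change was 1.09 for Cfd (95% confidence interval -0.20 to 2.38), 0.53 for Adipoq (-0.17 to 1.22), 0.49 for Lpl (-0.05 to 1.04), 0.46 for Cidec (-0.12 to 1.04) and 0.34 for Fabp4 (-0.06 to 0.73). The median over the 9 members was 0.46, while 51.2% of all genes had an estimate above 0. The smallest limma adjusted p among the members was 0.742, and 0 members had an unadjusted p below 0.05, against 6.65% of all genes (3.71% higher). Exact permutation p-values lay between 0.117 (Fabp4) and 0.552 (Car3). With swimming 5 left out as well, 8 of 9 estimates stayed above 0, with 0.68 for Cfd and 0.25 for Adipoq, and that of Car3 was -0.0025. With swimming 5 alone left out, 0 of 9 were above 0, and likewise with control 3 alone left out. The direction of these differences thus changed with single tumors.

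**Figure D2:**
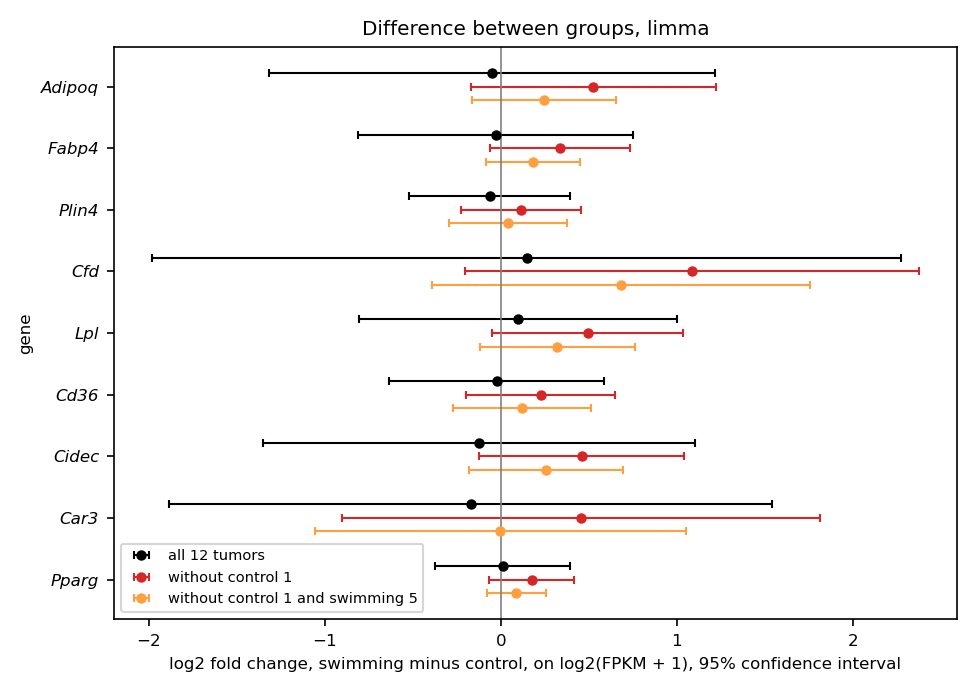
Log2 fold change, swimming minus control, on the log2(FPKM + 1) scale (horizontal axis) with its 95% confidence interval for the 9 members tested, from all 12 tumors (black), without control 1 (red) and without control 1 and swimming 5 (orange). Every interval includes 0, and the Cfd estimate moves from 0.15 to 1.09 when control 1 is left out.

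Adipoq was compared across tumors with the 9 other members and with genes that stand for other cell types, 16 relations in all, of which 15 are reported, each with 100000 permutations and with p-values adjusted by Benjamini-Hochberg over the 16 relations of each coefficient. Over 12 tumors all 9 members had a Pearson r with Adipoq past an adjusted p of 0.05, from 0.990 for Cidec (Spearman's rho 0.930), 0.977 for Cfd (rho 0.958) and 0.970 for Plin1 (rho 0.937), each with an adjusted permutation p of 5.33e-05 for r and of 0.00016 for rho, to 0.797 for Plin4 (adjusted permutation p = 0.0128, rho 0.364 with adjusted p = 0.329). Fabp4 (r 0.969, rho 0.860) and Lpl (r 0.957, rho 0.874) also passed by both coefficients. Pparg (r 0.931, rho 0.503), Cd36 (r 0.873, rho 0.629) and Car3 (r 0.857, rho 0.601) passed by r alone. The 2 tumors farthest from the Adipoq median were control 1 and swimming 5. Without them (n = 10) the relation held for Cidec (r 0.968), Cfd (r 0.951) and Plin1 (r 0.888), each with an adjusted permutation p of 0.00139, and for Lpl (r 0.774, adjusted permutation p = 0.0337). For Fabp4 the coefficients differed, with r = 0.645 (adjusted permutation p = 0.128) and rho = 0.758 (adjusted permutation p = 0.0496). For Cd36 (r 0.397), Pparg (r 0.275), Car3 (r 0.266) and Plin4 (r 0.114) the relation rested on those 2 tumors.

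The 6 genes that stand for other cell types had a lower r with Adipoq over 12 tumors than every member. This did not hold for rho, where Col1a1 was above Pparg (0.503), and Col1a1, Pecam1 and Csf1r were above Plin4 (0.364). Over 12 tumors Col1a1 of fibroblasts (r 0.731, rho 0.566), Pecam1 of endothelium (r 0.714, rho 0.455) and Csf1r of macrophages (r 0.641, rho 0.392) passed for r and not for rho, while Ckm of muscle (r 0.160), Krt14 of skin (r 0.129) and Krt8 of carcinoma (r -0.224) passed for neither. Without control 1 and swimming 5 none of these 6 passed, with r between -0.232 (Pecam1) and 0.174 (Col1a1). Within the swimming group (n = 6, exact permutation) 8 of 9 members passed for r, Cidec (r 0.984) and Plin1 (r 0.990) at an adjusted p of 0.0111, and Col1a1 did as well (r 0.870, adjusted p = 0.0444). By rho only Cidec and Plin1 passed there (adjusted permutation p = 0.0222), and Col1a1 did not (0.183). Within the control group (n = 6, exact permutation) Cfd alone passed for r (r 0.994, adjusted p = 0.0444), and not for rho (adjusted permutation p = 0.133). Each group still held its tumor far from the Adipoq median, swimming 5 or control 1. Taking the 45 pairs of members as a description, the median r was 0.894 over 12 tumors and 0.426 without control 1 and swimming 5. The 6 pairs among Adipoq, Cidec, Cfd and Plin1, picked after their values were seen, stayed between 0.789 and 0.968 there. The lowest pair without those tumors was Fabp4 with Plin4 (r -0.530). The ratio of a member to Adipoq over the 11 tumors with Adipoq above 0 varied 4.01 times for Cfd and 4.44 times for Cidec, but 22.4 times for Fabp4, 36.6 times for Cd36 and 46.7 times for Plin4. Ratios of Fabp4, Lpl, Cd36, Pparg and Plin4 to Adipoq were lowest in control 1.

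**Figure D3:**
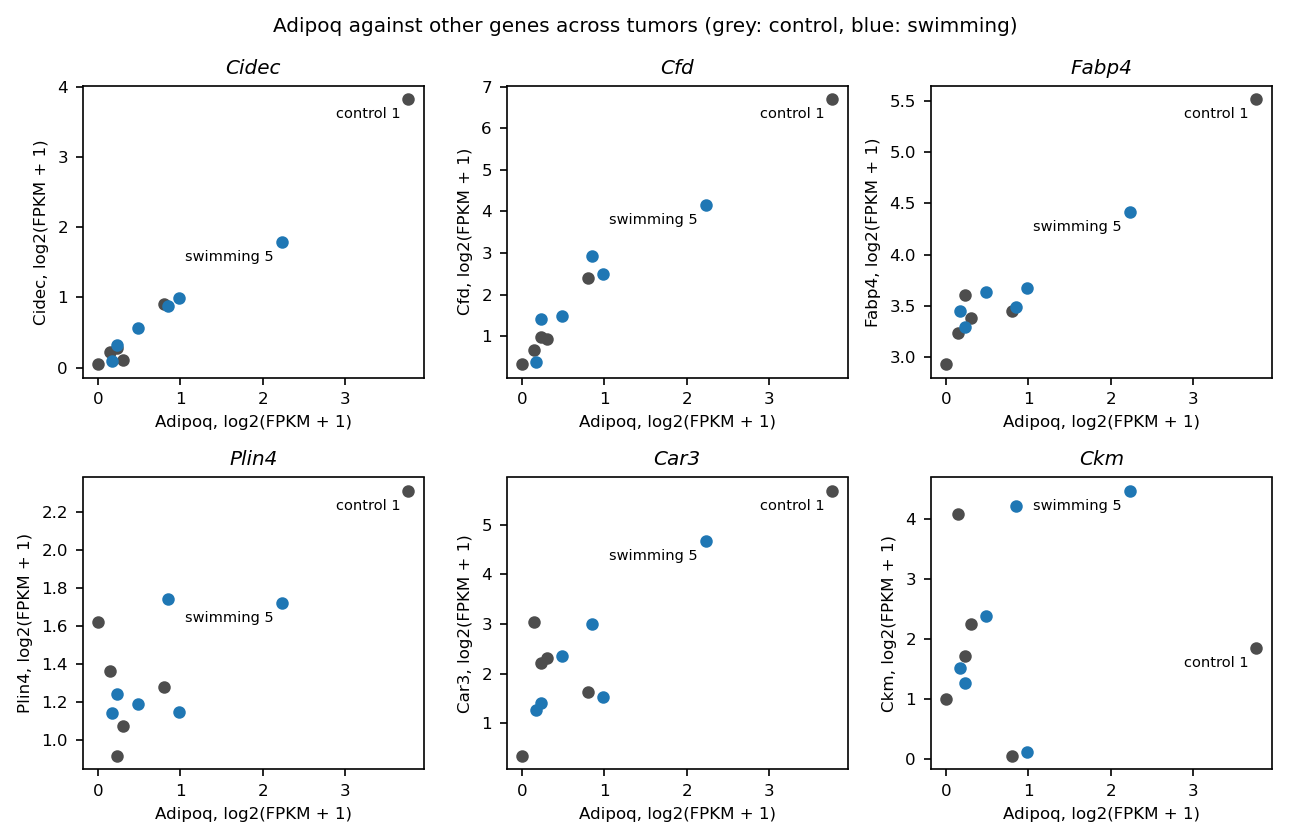
Level of 6 genes (vertical axes) against that of Adipoq (horizontal axes), all in log2(FPKM + 1), 1 point per tumor, grey for control and blue for swimming. Cidec and Cfd follow Adipoq through all tumors (r 0.990 and 0.977), Fabp4 less closely outside control 1 and swimming 5 (r 0.645), Plin4 and Car3 mainly through those tumors (r 0.114 and 0.266 without them), and the muscle gene Ckm does not (r 0.160).

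Genes outside the members with the pattern most like that of Adipoq were listed by Pearson's r over 12 tumors, among all genes tested and without a test. They were Gpd1 (r 0.983), which makes the glycerol phosphate of triglycerides, haptoglobin Hp (0.980), Apoc1 of lipoproteins (0.971), Trarg1, a regulator of glucose transporter traffic (0.969), resistin Retn, a hormone of mouse adipocytes (0.964), the parathyroid hormone receptor Pth1r (0.962), Cyp2e1, a cytochrome P450 (0.957), the metalloreductase Steap4 (0.954), Wfdc21 (0.953) and the cysteine dioxygenase Cdo1 (0.943). Hp was 78.0 FPKM in control 1, 22.8 in swimming 5 and 2.43 to 8.82 FPKM in the other tumors, and Retn was 5.86, 1.07 and 0 to 0.266 FPKM in the same order. All 10 were highest in control 1, which a pick by r with Adipoq favors, since Adipoq itself was far highest there. By the same measure Cidec held place 2 among all genes after Adipoq itself, Cfd place 5, Fabp4 place 8, Lpl place 11 and Pparg place 25, while Cd36, Car3 and Plin4 held places 108, 140 and 302. When control 1 was left out and ranks were used, other genes came first, namely the macrophage lectin Clec10a and the chemokine Ccl8 (both rho 0.945), the splicing factor subunit Sf3b5 and the chitinase-like Chil3 (both rho 0.936), and the immunoglobulin segment Igkv8-21 (rho 0.930), whose reads may be shared with other segments. Cfd had the same rho as Clec10a (0.945), and Cidec had 0.909.

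Other genes of adipocyte biology were taken from 8 lists with 83 genes, 67 of which passed the filter. Only Abhd5, the coactivator of the lipase Pnpla2, had an unadjusted p below 0.05, at 4.95 ± 0.40 FPKM in the control and 4.31 ± 0.20 FPKM in the swimming group (SD, n = 6, log2 fold change -0.16, limma adjusted p = 0.889, exact permutation p = 0.00866). Across all genes 5.56% had such a p, and 0 of the 67 had an adjusted p below 0.05. Among the adipokines (7 of 9 tested, median log2 fold change -0.05) Apoe was the most abundant, at 166 ± 40.5 in the control and 160.0 ± 59.6 FPKM in the swimming group, and leptin (Lep) the least, with 0.285 FPKM in control 1 and 0.139 in swimming 5. In the lipid droplet list (6 of 9 tested, median 0.02) Plin3 ranged from 31.4 to 38.1 FPKM and Plin2 from 23.5 to 35.3 FPKM, with control 1 in 6th and 8th place. Cidea, a droplet protein of brown fat, was 5.52 FPKM in control 1, 1.50 in swimming 5 and 0.0695 in control 2, and is listed at 0 in the other 9. The lowest mean in this list was that of Cideb, never above 0.189 FPKM.

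In the lipolysis list (4 of 8 tested, median -0.04) Pnpla2, the first lipase of triglyceride breakdown, was 26.5 FPKM in control 1 and 13.2 to 17.1 FPKM elsewhere. The beta-3 adrenergic receptor Adrb3 was 0.973 FPKM in control 1, 0.242 in swimming 5 and at most 0.0554 FPKM elsewhere, and the water channel Aqp3 was at most 0.0705 FPKM. For fatty acid and triglyceride synthesis (14 of 16 tested, median -0.05), 11 of 16 genes were highest in control 1, against 9.44% of all genes tested. Of these 11, Thrsp and Pck1 did not pass the filter. In control 1 Fasn, fatty acid synthase, reached 48.6 FPKM against 25.8 to 38.3 elsewhere. Thrsp, a regulator of lipogenesis, was 15.8 FPKM in control 1, 3.45 in swimming 5 and at most 0.172 elsewhere. Pck1, of glyceroneogenesis, was 6.68, 0.677 and at most 0.164 FPKM in the same order. Scd2, a fatty acid desaturase, was the most abundant gene of this list, at 118 ± 28.7 in the control and 135 ± 7.67 FPKM in the swimming group (limma adjusted p = 0.896).

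Among genes of fatty acid and glucose uptake (11 of 11 tested, median 0.02) 4 were highest in control 1. Cavin1 of caveolae was the most abundant, at 187 ± 19.7 and 201 ± 25.6 FPKM in the control and swimming groups, and the insulin-regulated glucose transporter Slc2a4 the least, at 1.27 FPKM in control 1, 0.613 in swimming 5 and 0 to 0.380 elsewhere. Of the transcription factors and cofactors (14 of 14 tested, median -0.02) 8 were highest in control 1. Cebpa, which acts with PPARγ, was 13.1 FPKM in control 1 and 5.11 to 9.73 elsewhere, Cebpb was the most abundant (87.2 ± 16.9 and 74.5 ± 15.8 FPKM) and Ebf2 the least (0.165 ± 0.117 and 0.154 ± 0.117 FPKM). Of the progenitor genes (7 of 8 tested, median 0.16) 1 was highest in control 1 and 5 in swimming 5. Over all genes tested these shares were 9.44% for control 1 and 16.2% for swimming 5. Among them Ly6a was 63.4 ± 16.4 FPKM in the control and 105 ± 59.4 FPKM in the swimming group, with the highest value, 177 FPKM, in swimming 5, and Dlk1 was the lowest, at up to 0.472 FPKM. Without control 1, 6 of the 67 genes tested had an unadjusted p below 0.05, against 6.65% of all genes, Lipe, Fabp5, Tnfrsf9, Icam1 and Cd24a with estimates above 0 and Abhd5 below 0, and 0 had an adjusted p below 0.05 (smallest 0.742).

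Brown and beige fat genes were of different kinds (4 of 8 tested, median 0.15). Ucp1, the uncoupling protein that defines thermogenic fat, was 1.85 FPKM in control 1 and 0.464 in swimming 5, and is listed at 0 in the other 10 tumors. Elovl3, a fatty acid elongase of brown fat, was 0.338, 0.0293 and 0 FPKM in the same order. Cox8b, a respiratory chain subunit of brown fat and striated muscle, was 9.73 FPKM in swimming 5, 8.93 in control 1 and at most 2.14 elsewhere. Prdm16 and Tmem26 did not exceed 0.165 FPKM in any tumor, and neither was highest in control 1. Tnfrsf9, also a receptor of activated T cells, was the most abundant gene of the list, from 14.7 to 41.7 FPKM over the 12 tumors (log2 fold change 0.40, limma adjusted p = 0.889).

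Markers of other cell types were set beside the adipocyte genes, and their part in the adipocyte values was not tested. Of the 10 mature adipocyte markers 10 were highest in control 1, against 9.44% of all genes tested, and 8 of the 10 passed the filter. This count is no separate check, since 6 of the markers are members and 4 are in the lists above. The summed FPKM of the 10 markers was 16.9 to 205 in the control and 19.5 to 58.7 in the swimming group. All 7 B cell genes were highest in control 1, with a sum of 5.96 FPKM there and at most 1.88 FPKM elsewhere. Of all genes tested 9.44% were highest in control 1, but only 2 of the 7 passed the filter, so this share is no like background for the others. Cd79b and Ms4a1 had the highest and lowest mean of the list, with at most 2.01 and 0.204 FPKM. Of 9 fibroblast genes 3 were highest in control 1 and 5 in swimming 5, against 9.44% and 16.2% of all genes tested. For 8 of the 9 these were the 2 highest tumors, with sums of 826 and 806 FPKM there and 192 to 479 FPKM elsewhere. Over all genes tested 3.07% had control 1 first and swimming 5 second, and the share in either order was not counted. Col1a2 was the most abundant of them and Fbln1 the least (0.143 to 2.56 FPKM).

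Skeletal muscle genes differed from this order, since 14 of 15 were highest in swimming 5 and 0 in control 1, with sums of 59.0 to 316 FPKM in the control and 72.3 to 424 FPKM in the swimming group. Over all genes tested 16.2% were highest in swimming 5 and 9.44% in control 1. Eno3 was the most abundant muscle gene (50.2 to 76.8 FPKM) and Mb the least (0 to 2.22 FPKM). Of 10 endothelial genes, from Vwf at 0.0871 to 0.805 FPKM up to Cdh5 at 11.3 to 18.3 FPKM, 6 were highest in control 1, with sums of 61.0 FPKM there and 34.0 to 54.4 FPKM elsewhere. Of 11 macrophage genes, from Mertk at 3.38 to 5.94 FPKM up to Lyz2 at 687 to 1050.5 FPKM, 0 were highest in control 1 and 7 in swimming 5, with sums of 1438 to 2054 FPKM over the control and 1505 to 2006 FPKM over the swimming group. Skin genes gave sums of 1.81 to 2.87 FPKM, mostly from Krt10 (1.50 to 2.62 FPKM), with Krt1 at 0.0290 FPKM or less. Of 6 T cell genes 4 (Cd3d, Cd3g, Cd8a and Trac) had an unadjusted p below 0.05 with estimates above 0 (0.43 to 0.61, limma adjusted p = 0.889), the other 2 did not, against 3.11% of all genes with such a p and a higher estimate. Without control 1 all 6 had such a p, against 3.71% of all genes. Of the T cell genes 1 of 6 was highest in control 1. Of the carcinoma genes Krt8 had the highest mean (29.0 ± 49.5 and 6.11 ± 4.78 FPKM in the control and swimming groups, limma adjusted p = 0.911), through control 4 at 129 FPKM. Without control 4 its control mean was 8.95 ± 6.88 FPKM (SD, n = 5), and Krt18 was above Krt8 in 8 of the 12 tumors.

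**Figure D4:**
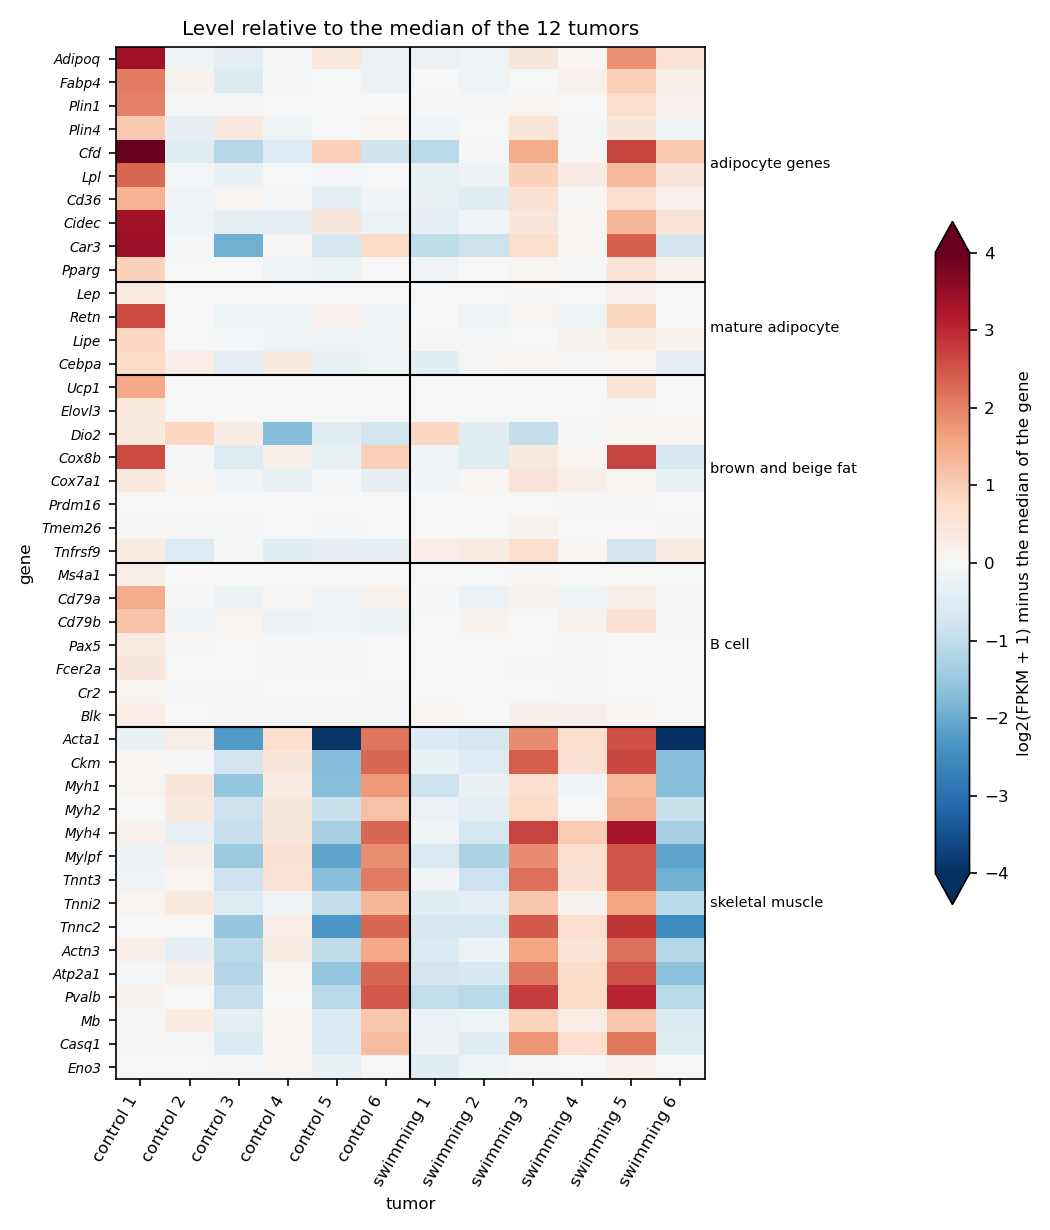
Level of each gene (rows, grouped by list) in each tumor (columns) as log2(FPKM + 1) minus the gene's median over the 12 tumors, red above and blue below the median, with the scale closed at 4. The column of control 1 is above the median for the adipocyte, mature adipocyte and B cell genes. The excess is small, and its color faint, for Lep and for the B cell genes other than Cd79a and Cd79b. The column of swimming 5 is above the median for the adipocyte and muscle genes, and the muscle genes are near their median in control 1.

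Promoter sequences were available for 7 of the 10 members, in 10 windows from 250 bases before to 50 after a start site (RefSeq, GRCm38.p6). They are shown because all 10 members were highest in control 1, although not all followed each other in the remaining tumors. The 250 bases before the start are printed 5′ to 3′ on the gene's strand. Both strands were searched for the PPAR-RXR element DR1, which is 2 copies of AGGTCA spaced by 1 base, with at most 2 mismatches, and for single copies of AGGTCA, the C/EBP core TTGCNNAA and TATAAA, where a single AGGTCA can lie within DR1. Capitals mark the matches. The windows shown are the single window of Adipoq, chr16:23146286-23146535 (plus strand), the Plin1 window, chr7:79732777-79733026 (minus strand), 1 of the 2 windows of Cidec, chr6:113434765-113435014 (minus strand), the Cd36 window, chr5:17835897-17836146 (minus strand), and 1 of the 3 windows of Pparg, chr6:115421816-115422065 (plus strand).
Adipoq: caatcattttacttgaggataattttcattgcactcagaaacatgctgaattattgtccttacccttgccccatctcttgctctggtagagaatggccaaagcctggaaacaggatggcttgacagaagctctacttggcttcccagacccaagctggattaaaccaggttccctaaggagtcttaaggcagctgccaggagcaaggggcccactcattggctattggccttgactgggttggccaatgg
Plin1: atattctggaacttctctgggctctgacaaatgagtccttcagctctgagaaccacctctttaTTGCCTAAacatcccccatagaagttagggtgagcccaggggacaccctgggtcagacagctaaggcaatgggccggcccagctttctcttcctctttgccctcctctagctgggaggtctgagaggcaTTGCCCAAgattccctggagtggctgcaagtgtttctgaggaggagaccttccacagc
Cidec: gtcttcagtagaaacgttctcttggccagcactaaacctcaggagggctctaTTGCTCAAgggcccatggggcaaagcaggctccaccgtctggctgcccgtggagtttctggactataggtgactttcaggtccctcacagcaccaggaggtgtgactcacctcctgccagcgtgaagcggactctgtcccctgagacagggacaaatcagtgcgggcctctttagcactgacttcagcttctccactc
Cd36: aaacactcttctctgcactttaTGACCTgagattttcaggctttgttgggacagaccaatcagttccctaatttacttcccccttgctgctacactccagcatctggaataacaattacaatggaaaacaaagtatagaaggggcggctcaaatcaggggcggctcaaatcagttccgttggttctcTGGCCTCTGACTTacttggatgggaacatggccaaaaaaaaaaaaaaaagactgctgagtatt
Pparg: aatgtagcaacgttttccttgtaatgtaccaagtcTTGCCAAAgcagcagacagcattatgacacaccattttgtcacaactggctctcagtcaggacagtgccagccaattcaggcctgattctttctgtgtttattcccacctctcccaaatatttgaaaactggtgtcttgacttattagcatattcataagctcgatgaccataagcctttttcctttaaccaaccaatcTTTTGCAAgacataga

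The C/EBP core was in 3 of the 10 windows, and in 10.8% of the 32851 promoter windows of the table. Plin1 held it at -187 and -58 from the start site, Cidec at -198, and the Pparg window at -215 and, on the reverse strand, at -16. DR1 with 2 mismatches was in the Cd36 window alone, at -63 on the reverse strand, and in 3.86% of all windows. AGGTCA was in 3 of the 10 windows, at -228 in Cd36 and in the other 2 windows of Pparg, and in 16.3% of all windows. TATAAA was in 1 window, of Pparg, and in 13.6% of all windows. In the windows of Adipoq, Plin4 and Cfd none of the 4 motifs was found. A match in these letters is a description of the window and not a bound site.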

How the data were processed

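RNA-Seq was done on 6 control and 6 swimming tumors. The authors removed ribosomal RNA, mapped reads with HISAT2 2.0.5 and quantified genes with StringTie 1.3.3, per the submitters' processing notes. The deposited values are FPKM per gene. The methods name hg38 and the processing notes hg38 and GRCm38, while the files list mouse Ensembl genes, so coordinates from GENCODE M21 (GRCm38) were matched by identifier. FPKM carry no counts and thus no absolute depth, and relative depth was taken from the steps of weakly expressed genes. How reads shared by paralogs or overlapping genes were divided is part of the deposited values.

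Groups came from the sample labels. Beside the replicate number, the labels give each tumor a further number in brackets whose meaning is not stated. Each tumor is from another mouse. The 19018 genes that reached 0.1 FPKM in 6 or more tumors were compared on log2(FPKM + 1) with limma 3.58.1 (R 4.3.3, eBayes with trend) and Benjamini-Hochberg adjustment. The study names limma with a cut-off and no adjustment. Single genes were also compared by exact permutation. Correlations used scipy 1.17.1 and pandas 2.3.3 in Python 3.11.15, and plots matplotlib 3.10.9. On simulated data with 200 of 19018 genes changed by 1 on the log2 scale, limma called 95.5% of them for this comparison. The changed genes were drawn from those with a mean log2(FPKM + 1) above 1, each with its own spread. This share does not hold for the members, some of which lay below that level and whose SEs were large (0.587 for Adipoq, 0.986 for Cfd). The members and gene lists were chosen with earlier results of these data known. A planned marker gene and its relation to Adipoq are not reported here. Named are the members, list genes with an unadjusted p below 0.05 or with the highest or lowest mean, the genes most like Adipoq, and genes that decide a statement, the last of which were chosen after their values were seen. Alternatives were other pseudocounts, filters, scalings, moderation without trend, sample weights, a replicate block, leaving out each tumor, and, chosen after seeing the data, leaving out control 1 and swimming 5 together.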

Additional observations from a re-analysis of the deposited data

Results flagged for a closer look

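In 32 groups of 6 tumors (the 10 members and the 6 genes of other cell types, in each group, on the log2 scale) 1 tumor lay farther from the others than Dixon's 95% critical value in 10 groups, where chance gives about 1 in 20, or 1.6. In 8 of them that tumor was control 1. It stood above the other controls for Adipoq at 12.6 FPKM, Fabp4 at 44.7 FPKM, Plin1 at 3.33 FPKM, Cfd at 102.6 FPKM, Lpl at 6.63 FPKM, Cd36 at 14.6 FPKM, Cidec at 13.1 FPKM and Pparg at 1.83 FPKM, which are 8 of the 10 members. In the other 2 groups it was swimming 5, for Fabp4 at 20.3 FPKM and for Plin1 at 0.747 FPKM. Groups of the same tumors are not independent, since these genes were high together.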

How the results depend on the processing

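Under each alternative 0 members passed an adjusted or an unadjusted p of 0.05 or the study's cut-off, leaving out each tumor included, and the filter of 1 FPKM left 5 members. Directions of single genes did change. With a pseudocount of 0.1 or 0.01 the log2 fold change was 0.41 or 0.98 for Adipoq and 0.30 or 0.59 for Cidec, with quantile normalization -0.0101 for Pparg, and with sample weights 0.0458 for Adipoq, 0.037 for Fabp4 and 0.0063 for Cd36. Without control 1 and swimming 5 it was 0.25 for Adipoq, 0.19 for Fabp4, 0.0421 for Plin4, 0.12 for Cd36 and 0.26 for Cidec. Leaving out each tumor gave -0.33 to 0.53 for Adipoq, -0.63 to 0.46 for Car3, -0.13 to 0.23 for Cd36, -0.25 to 1.09 for Cfd, -0.33 to 0.46 for Cidec, -0.18 to 0.34 for Fabp4, -0.0761 to 0.49 for Lpl, -0.17 to 0.11 for Plin4 and -0.0787 to 0.17 for Pparg. The cause of these changes was not tested beyond the tumors left out. Genes of the 8 lists with an unadjusted p below 0.05 numbered 1, against 3 with sample weights, 2 with the replicate block, 4 without control 1 and swimming 5, and 1 to 6 when each tumor was left out. Relations of Adipoq past an adjusted p numbered 12 of 16 and 8 to 12 when each tumor was left out, lowest without control 1 (8) and 9 without swimming 5. Genes past the study's cut-off numbered 13 higher and 7 lower, against 83 and 55 with a pseudocount of 0.1 and 132 and 97 with 0.01.

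Numbers 1 to 6 occur in both groups, and whether they pair the tumors is not stated. Same-numbered tumors had a mean correlation of deviations of -0.12, against 0.0246 for other pairs. Of the tumors, 0 of 12 correlated best with their own number. Because deviations were taken within groups, the value for other pairs is not independent of that for same-numbered tumors. Same-numbered tumors were thus not more alike, but a low correlation cannot exclude that the numbers pair the tumors. With the replicate block 0 members passed. Each number occurs once in each group, so the block could change the error of an estimate but not the estimate itself. Depth limits the values of Plin1, Adipoq and Cidec outside control 1 and swimming 5, which were mostly below 1 FPKM, and no counting error could be given for them.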
